A study of Mus musculus with 7 samples.

Results

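The 8 genes described here encode the enzymes that write and remove cytosine methylation in DNA, with the cofactor that guides the maintenance enzyme. They were found in the deposited count table by matching the Ensembl identifiers to the gene symbols Dnmt1, Uhrf1, Dnmt3a, Dnmt3b, Tet1, Tet2, Tet3 and Tdg, a list made from their known roles, and each gave 1 row of the 27138 features. All 8 had enough reads to be among the 16910 features tested. The libraries were made from polyadenylated RNA of mouse embryonic pancreas at day E15.5, with 3 conditional knockout (cKO) libraries and 4 wild-type (WT) libraries, each from its own animal. The cKO embryos carried Pdx1Cre together with mLINC00673fl/fl, floxed alleles of 2610035D17Rik, the gene that corresponds in mice to human LINC00673, a long non-coding RNA. The WT embryos carried mLINC00673fl/fl with no Cre, so an effect of Cre itself cannot be told apart from that of the deletion. Pdx1Cre acts in the pancreatic epithelium, while the dissected organ also holds mesenchyme, vessels, nerves and blood cells. The comparison asks how the deletion bears on the transcriptome of the developing pancreas.

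Cytosine methylation in mammals lies mostly at CpG sites and helps to keep genes and repeats silent through cell division. After replication, Uhrf1 binds CpG sites that carry the mark on the old strand alone and brings in Dnmt1, which copies it to the new strand. Dnmt3a and Dnmt3b place the mark at sites that lacked it. Tet1, Tet2 and Tet3 are iron-dependent and oxoglutarate-dependent dioxygenases that oxidise methylated cytosine to hydroxymethylcytosine and further products, and Tdg is a glycosylase that cuts out the most oxidised of them, which base excision repair then replaces with cytosine. In the mouse pancreas, Dnmt1 is known to be needed for the survival of progenitor cells, and Dnmt3a for the identity of beta cells.

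Totals lay between 14883918 and 17767373 counts per library. The targeted gene 2610035D17Rik averaged 2.55 ± 0.726 CPM in cKO (SD, n = 3) and 8.65 ± 0.498 CPM in WT (SD, n = 4), and the groups did not overlap (edgeR adjusted p = 0.0902, DESeq2 adjusted p = 1.25e-09). CPM is the read count scaled to a common library total with TMM factors. The tissue's defining genes were present in every library, with summed levels of the 10 pancreatic epithelium markers of 6083.8 to 7790.1 CPM in cKO and 6297.2 to 10986.0 CPM in WT. In 2 libraries, cKO replicate 1 and WT replicate 4, the 8 liver markers summed to 1912 and 1233 CPM, against 302.9 to 416 CPM in the other 5. Most of the sum in those 5 was Ttr, which had 238 to 358 CPM over all 7 libraries. Alb had 689 and 354 CPM in the 2 libraries, against 8.59 to 31.0 CPM in the other 5. WT replicate 2 was the only library with 0 counts of the 4 Y-linked genes examined. WT replicate 4 also carries a different number in its column header from the other 6 libraries, and no source used here says what that number stands for.

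The promoters of the maintenance pair are shown because they share a sequence that the promoters of the other 6 genes lack. RefSeq windows on GRCm38.p6, from 250 bases before to 50 bases after each annotated start, were found for all 8 genes, 13 windows in all. They were searched on both strands for TTTGGCGC, TTTGCCGC, TTTCGCGC and TTTCCCGC, forms of the site bound by E2F factors, which switch on genes of DNA replication. In capitals are the matches in the Dnmt1 window at chr9:20952574-20952873 (minus strand) and the Uhrf1 window at chr17:56304063-56304362 (plus strand), each written 5′ to 3′ along the gene.
Dnmt1: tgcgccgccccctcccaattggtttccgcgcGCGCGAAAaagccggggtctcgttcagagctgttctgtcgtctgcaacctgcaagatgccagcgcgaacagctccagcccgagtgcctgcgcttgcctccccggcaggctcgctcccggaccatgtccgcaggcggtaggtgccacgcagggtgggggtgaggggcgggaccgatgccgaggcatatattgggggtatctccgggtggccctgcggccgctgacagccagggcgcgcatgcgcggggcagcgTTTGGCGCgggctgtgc
Uhrf1: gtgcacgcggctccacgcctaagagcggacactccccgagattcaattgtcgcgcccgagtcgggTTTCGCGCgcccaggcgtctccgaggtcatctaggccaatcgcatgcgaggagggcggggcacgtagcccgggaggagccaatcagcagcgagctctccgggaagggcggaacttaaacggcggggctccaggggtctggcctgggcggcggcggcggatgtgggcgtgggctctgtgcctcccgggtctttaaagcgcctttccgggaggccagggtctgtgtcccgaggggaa

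The Dnmt1 window held TTTCGCGC on the opposite strand, 219 bases before the start, and TTTGGCGC on the gene's strand, 33 bases after it. The Uhrf1 window held TTTCGCGC 185 bases before the start. These distances are from the start annotated for each window, and which annotated start is used in this tissue is not known. No other window of the 8 genes held any of the 4 forms, and among all 32851 windows 2.26% did. Each gene had at least 1 window with more CpG sites than the median of 7 over all windows. Tet2 had 57, more than 99.8% of windows, and the windows of Dnmt3a held 46, 47 and 18. These matches describe letters in a window and are not evidence of binding, and methylation was not measured.

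Set per length, the maintenance genes stood highest and Tet1 and Tet2 lowest. On the scale of CPM per kb of merged exons, Uhrf1 averaged 45.6 ± 4.69 over the 7 libraries (SD, n = 7), Dnmt1 31.3 ± 3.93 and Dnmt3a 14.8 ± 2.64. Tdg averaged 14.1 ± 3.46, Tet3 7.27 ± 1.49 and Dnmt3b 3.83 ± 0.672 CPM per kb. Tet2 and Tet1 were at 1.88 ± 0.3003 and 1.83 ± 0.570 CPM per kb. Among all tested annotated features, Uhrf1 was above 93.4% in this level per kb, and Tet1 was above 29.2%. The ranges over the 7 libraries overlapped between neighbours in this order only for Dnmt3a with Tdg and for Tet2 with Tet1, where Dnmt3a was the higher in 3 of 7 libraries and Tet2 in 4 of 7. Lengths come from GENCODE M21 and the transcripts in use are not known. With the length of the longest transcript, Dnmt3a was at 25.4 and Tet2 at 3.46 CPM per kb, and Tet2 then lay above Tet1 in 7 of 7 libraries. Dnmt3a then lay above Tdg in 5 of 7. The ranges of Uhrf1 and Dnmt1, and of Dnmt3b and Tet2, also overlapped by this length.

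**Figure D1:**
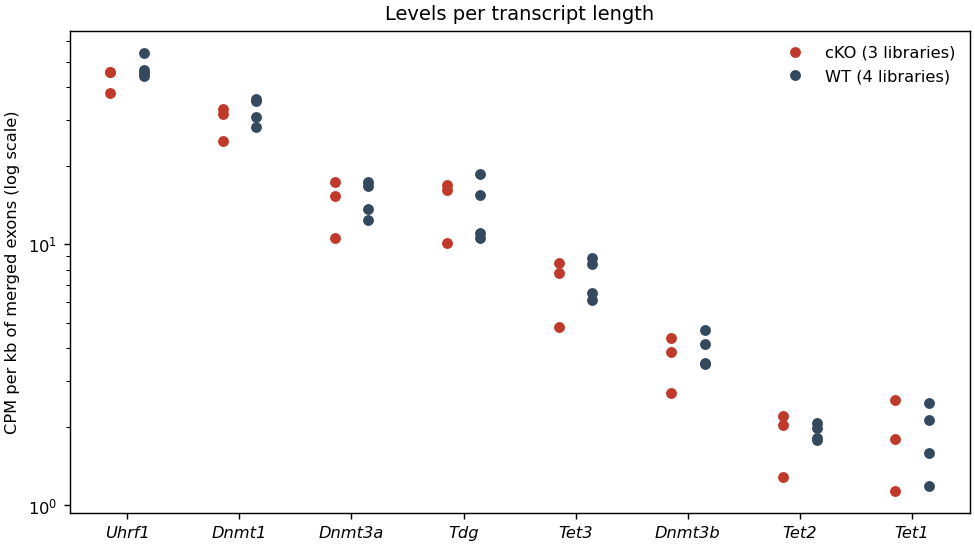
Levels of the 8 genes in CPM per kb of merged exons on a log axis, 1 point per library, cKO libraries to the left and WT libraries to the right in each column. Uhrf1 lay between 37.9 and 53.9 CPM per kb and Tet1 between 1.14 and 2.53, with cKO and WT points interleaved for each gene.

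Within families, 1 member supplied most of the transcripts. Dnmt3a was 3.94, 3.96 and 3.94 times as high as Dnmt3b per kb in cKO replicates 1 to 3, against 3.30, 3.55, 4.94 and 3.55 times in WT replicates 1 to 4. Tet3 made up 66.5%, 66.9% and 64.1% of the summed Tet level per kb in the cKO libraries, against 64.3%, 65.0%, 68.3% and 68.6% in the WT libraries. The groups overlapped in both measures, and both depend on the exon lengths used.

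None of the 8 genes was called between cKO and WT pancreas. Each had an adjusted p of 1.00 (edgeR quasi-likelihood, Benjamini-Hochberg over every tested feature), and 0 of 8 had an unadjusted p under 0.05. Over all features, 1 was called, 0.00591% of those tested, and 1.38% had an unadjusted p under 0.05. The targeted gene 2610035D17Rik was itself not called by edgeR (log2 fold change −1.76, edgeR adjusted p = 0.0902), though DESeq2 called it. Absence of a call in this fit thus does not show absence of a difference. DESeq2 called 0 of the 8 genes, with 0.0771% of features called. The cKO and WT values overlapped for every one of the 8 genes, while 2.72% of all tested features had groups that did not overlap. In the fit 7 of the 8 genes were lower in cKO and Tdg was higher, with a median log2 fold change over the 8 of −0.08, beside −0.01 over all features, of which 46.0% were higher. Without cKO replicate 1 the count lower in cKO was 3 of 8, namely Dnmt1, Uhrf1 and Tdg, and the median was 0.09. Leaving out that library thus turned the sign of 6 genes, and these signs also turned in other settings given below. In bulk RNA, fewer cells that express a gene and less RNA per cell cannot be told apart.

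**Figure D2:**
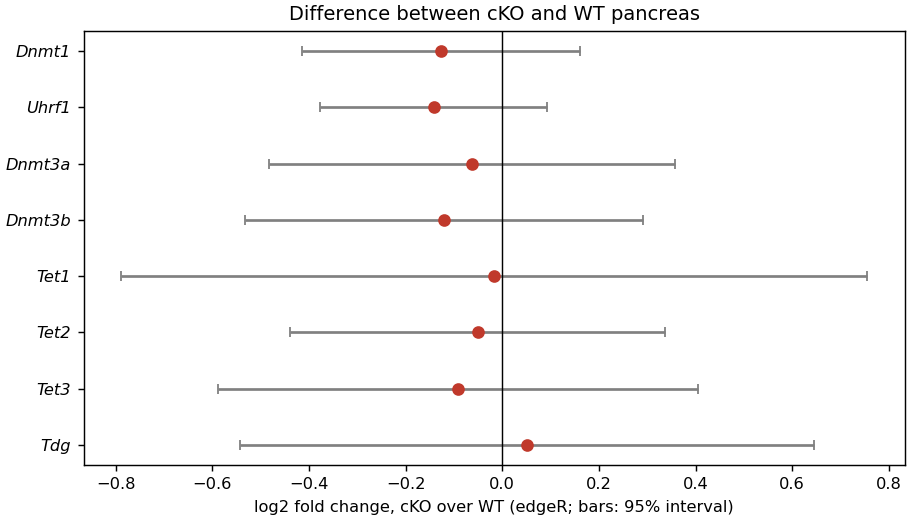
Log2 fold change of each gene, cKO over WT, from edgeR, with bars for the 95% interval. All 8 intervals span 0, the narrowest for Uhrf1 (−0.38 to 0.09) and the widest for Tet1 (−0.79 to 0.76).

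Of the maintenance pair, Dnmt1 (ENSMUSG00000004099, chromosome 9) had 183, 232 and 244 CPM in cKO replicates 1 to 3, against 226, 265, 259.8 and 208 CPM in WT replicates 1 to 4. The lowest value was in cKO replicate 1 and the highest in WT replicate 2, and both genotypes were mixed among the other 5. Dnmt1 averaged 219 ± 32.5 CPM in cKO (SD, n = 3) and 239.5 ± 27.4 CPM in WT (SD, n = 4). The log2 fold change was −0.13 with an SE of 0.127 (95% interval −0.41 to 0.16), and the exact two-sided permutation p was 0.457. Its cofactor Uhrf1 (ENSMUSG00000001228, chromosome 17) had 161, 194 and 194 CPM in the cKO libraries, against 199, 229.6, 187 and 193 CPM in the WT libraries. Again cKO replicate 1 was the lowest and WT replicate 2 the highest. Uhrf1 averaged 183 ± 18.9 CPM in cKO (SD, n = 3) and 202 ± 18.9 CPM in WT (SD, n = 4), and its log2 fold change was −0.14 (SE 0.104, exact permutation p = 0.400). It had the narrowest interval of the 8, which spans 0.770 to 1.07 times the WT level.

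Of the enzymes that place new marks, Dnmt3a (ENSMUSG00000020661, chromosome 12) had 176, 255 and 288 CPM in the cKO libraries, against 228, 278, 289 and 206 CPM in the WT libraries. The low libraries were cKO replicate 1 and WT replicate 4, 1 of each genotype. Dnmt3a averaged 239.6 ± 57.6 CPM in cKO (SD, n = 3) and 250.3 ± 39.8 CPM in WT (SD, n = 4), with a log2 fold change of −0.06 (95% interval −0.48 to 0.36, exact permutation p = 0.714). Dnmt3b (ENSMUSG00000027478, chromosome 2), with fewer reads (232 to 406 counts per library), had 13.7, 19.7 and 22.4 CPM in the cKO libraries, against 21.2, 24.0, 17.9 and 17.8 CPM in the WT libraries. The fit gave Dnmt3b a log2 fold change of −0.12 (95% interval −0.53 to 0.29, exact permutation p = 0.629). cKO replicates 2 and 3 lay within the WT range, and cKO replicate 1 below it. Dnmt3c, the germline copy of Dnmt3b, had 0 to 4 counts per library, and the antisense gene Dnmt3aos 0 to 3, far fewer than either enzyme gene.

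Of the 3 dioxygenase genes, Tet1 (ENSMUSG00000047146, chromosome 10) differed most between embryos of 1 genotype. It had 17.6, 27.7 and 39.2 CPM in the cKO libraries, against 24.5, 38.2, 32.7 and 18.4 CPM in the WT libraries. Each genotype had a low library under 20 CPM and a high library over 35 CPM. Its log2 fold change was −0.02 (SE 0.328, 95% interval −0.79 to 0.76, exact permutation p = 0.943), so the interval reaches from 0.579 to 1.69 times the WT level. Tet2 (ENSMUSG00000040943, chromosome 3) had 21.7, 34.3 and 37.2 CPM in the cKO libraries, against 30.6, 34.8, 33.4 and 30.0 CPM in the WT libraries. The WT values lay close together and the cKO values spread to both sides of them, with an SD of 8.26 CPM in cKO and 2.27 CPM in WT, a difference that was not tested. The log2 fold change of Tet2 was −0.05 (95% interval −0.44 to 0.34, exact permutation p = 0.886). Tet3 (ENSMUSG00000034832, chromosome 6) had 80.3, 129 and 141 CPM in the cKO libraries, against 102, 141, 147 and 108 CPM in the WT libraries. Its log2 fold change was −0.09 (95% interval −0.59 to 0.41, exact permutation p = 0.743), and cKO replicate 1 was again the lowest library.

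Tdg (ENSMUSG00000034674, chromosome 10), the glycosylase that completes removal, had 90.9, 87.0 and 54.4 CPM in the cKO libraries, against 59.1, 99.9, 57.0 and 82.9 CPM in the WT libraries. The values fell into a high set of 4 libraries and a low set of 3, with both genotypes in each, and cKO replicate 1 was among the high ones. Tdg averaged 77.4 ± 20.1 CPM in cKO (SD, n = 3) and 74.7 ± 20.5 CPM in WT (SD, n = 4), with a log2 fold change of 0.05 (95% interval −0.54 to 0.64, exact permutation p = 0.857). In the annotation 6.83% of its merged exon length overlaps Glt8d2 on the other strand, a gene of 5.31 to 7.64 CPM, and strand was not kept in these libraries. The processed pseudogene Tdg-ps had 0 to 7 counts.

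**Figure D3:**
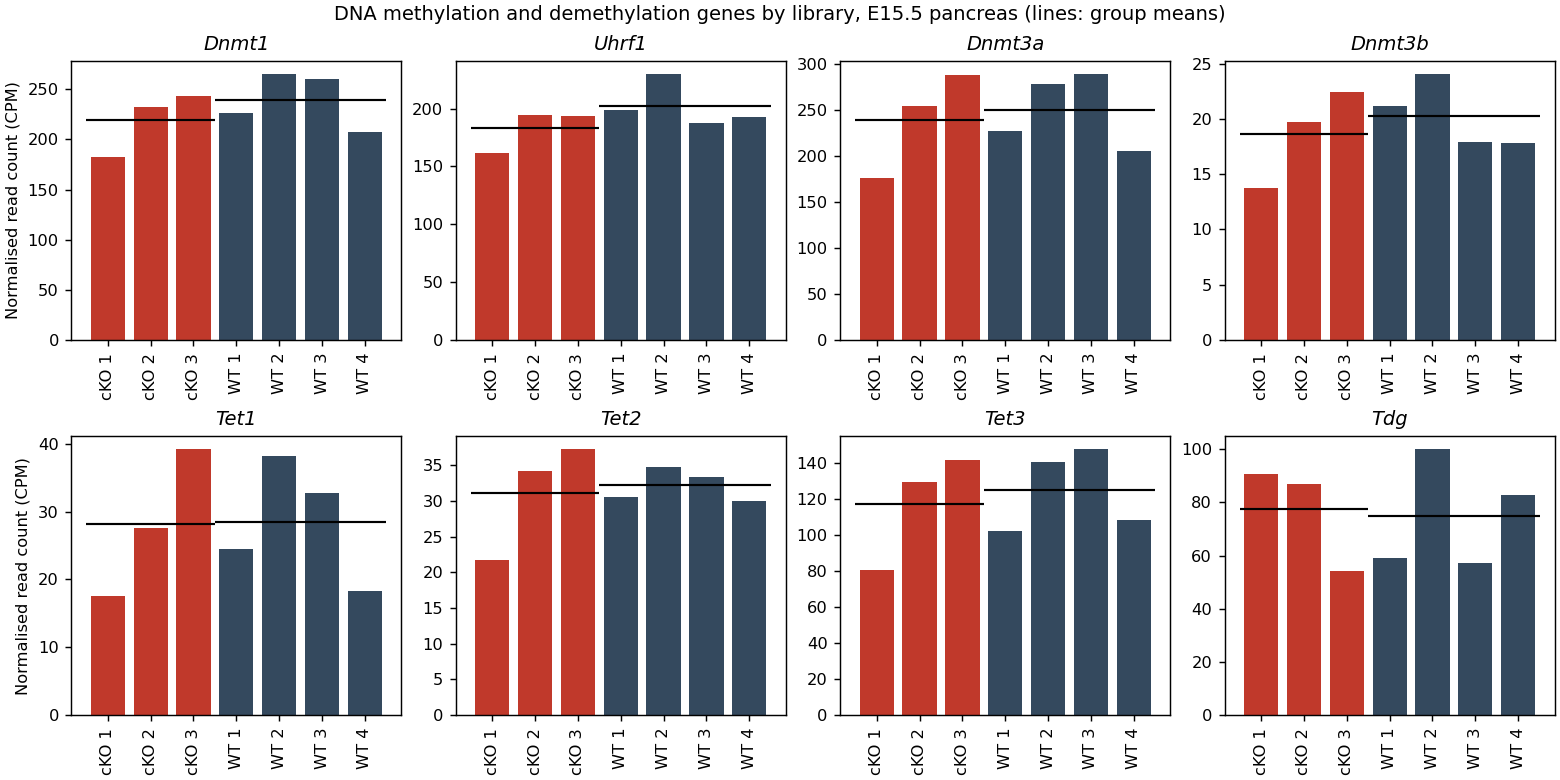
Normalised read count (CPM) of each gene in every library, cKO replicates 1 to 3 at the left and WT replicates 1 to 4 at the right of each panel, with group means as lines. For 7 of 8 genes cKO replicate 1 was the lowest library, while Tdg was lowest in cKO replicate 3 (54.4 CPM).

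For 7 of the 8 genes the SD of log2 CPM within groups was larger than the size of the log2 fold change, and for Uhrf1 both were 0.14. This SD was 0.513 for Tet1, where the median of the 5428 tested features with a mean CPM within 2-fold was 0.152 and 96.4% of them were below Tet1. It was 0.398 for Tdg, above 96.6% of features of like mean CPM, 0.344 for Tet3 (94.5%) and 0.296 for Dnmt3a (89.8%). Uhrf1, at 0.140 beside a median of 0.128, was close to such features. All 8 genes lay above the median of features of like mean CPM. Among genes of like mean CPM whose longest transcript was also within 1.5-fold in length, Tet1 was above 88.4% (median 0.311), Tet3 above 79.7% (0.238) and Dnmt3a above 73.1% (0.221), while Tdg was above 98.5% (0.111). By this closer match Uhrf1 was above 72.1% (0.106). These SDs hold sampling error as well as differences between embryos.

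Apart from Tdg the genes were positively correlated over the 7 libraries. All 21 pairs among the other 7 genes had a positive correlation of log2 CPM, with Pearson's r between 0.64 and 0.97 and a median of 0.87. The share of positive pairs among other genes was not counted. Of 11669 named genes, 894 had an r above 0.9 with Dnmt3a, so such covariation was not particular to these 7 genes. Without the 2 libraries farthest from the median of the first gene, 15 of the 21 were still positive, with a lowest r of −0.73 (Uhrf1 with Tet3) and a median of 0.64. With exact permutation tests and Benjamini-Hochberg adjustment over all 28 pairs, 12 of the 28 had an adjusted p under 0.05 by Pearson's r, and 2 of the 28 by Spearman's rho. Dnmt3a and Tet3 gave the highest value (r = 0.97, exact permutation p = 0.00139, adjusted 0.00972; Spearman's rho = 0.96, exact permutation p = 0.00278, adjusted 0.0389), and r was 0.97 without cKO replicate 1 and WT replicate 4, the libraries farthest from the median. Dnmt1 with Dnmt3a gave r = 0.96 (exact permutation p = 0.000992, adjusted 0.00926; rho = 0.89, exact permutation p = 0.0123, adjusted 0.0689) and r = 0.95 without cKO replicate 1 and WT replicate 2. Tet1 with Tet2 gave r = 0.84 (exact permutation p = 0.000992, adjusted 0.00926; rho = 0.96, exact permutation p = 0.00278, adjusted 0.0389), and 0.85 without cKO replicate 1 and WT replicate 4.

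The maintenance pair itself was not among the pairs that passed. Dnmt1 with Uhrf1 gave r = 0.77 (exact permutation p = 0.0623, adjusted 0.108; rho = 0.50, exact permutation p = 0.267, adjusted 0.403), and r was −0.56 without cKO replicate 1 and WT replicate 2, so the relation rests on those 2 libraries. Uhrf1 went most closely with Dnmt3b, at r = 0.91 (exact permutation p = 0.00476, adjusted 0.0167; rho = 0.86, exact permutation p = 0.0238, adjusted 0.0741) and 0.64 without the same 2 libraries. Tdg had r between −0.42 and 0.11 with the other 7 genes, and none of its 7 pairs passed.

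**Figure D4:**
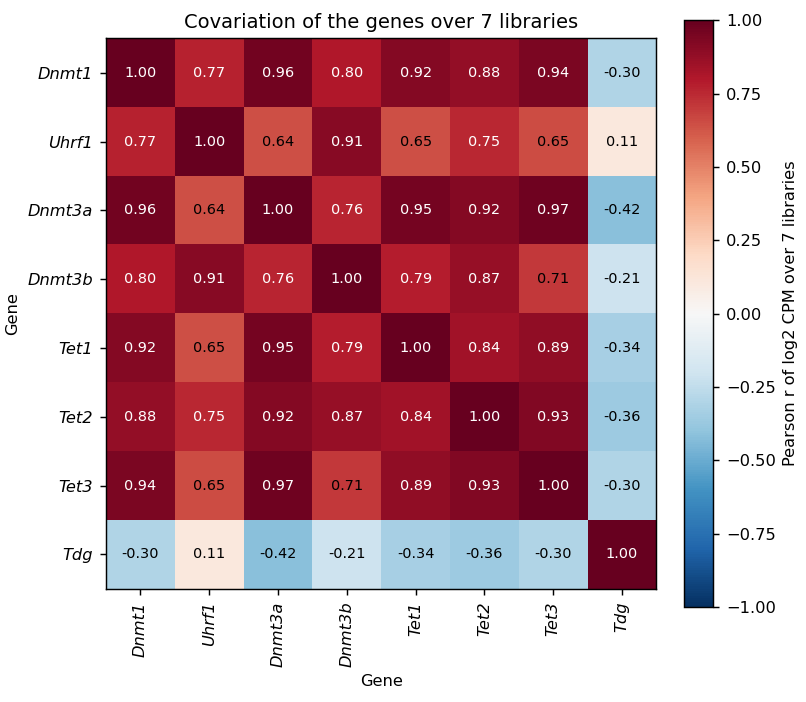
Pearson's r of log2 CPM over the 7 libraries for each pair of genes, red for positive and blue for negative values. The 7 genes other than Tdg form a positive block (0.64 to 0.97), and Tdg lies outside it (−0.42 to 0.11).

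Many other genes shared these profiles. Of 11669 named genes with a mean of at least 5 CPM, 894 had an r above 0.9 with Dnmt3a, 872 with Dnmt1, 847 with Tet2 and 803 with Tet3. The counts were 609 with Tet1, 425 with Dnmt3b, 155 with Uhrf1 and 63 with Tdg, as a description over 7 libraries. The nearest to Dnmt1 were Prrc2a (r = 0.996) and Rad54l2 (0.995), and to Dnmt3a Atg2b (0.996) and Pign (0.995). The nearest to Tet1 were the telomere and replication timing factor Rif1 (0.997) and Ylpm1 (0.995). Those to Tet2 were the nuclear receptor Nr2c2 (0.997) and Pitpnc1 (0.996), and to Tet3 the small RNA effector Ago2 (0.995) and Zfp407 (0.994). The nearest to Dnmt3b were Cul3 (0.992) and Hells (0.987), a chromatin remodeller needed for DNA methylation, and to Uhrf1 Sos2 (0.985) and Nup93 (0.984). The nearest to Tdg were Ybx3 (0.993) and Ybx1 (0.973), which encode RNA-binding cold shock proteins.

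The level of long relative to short transcripts differed between libraries, and 6 of the 8 genes were correlated with it by Pearson's r. Its measure was the median log2 deviation of 1908 protein-coding genes with transcripts of at least 6000 bases, minus that of 2075 genes with at most 2000 bases. Deviations were from each gene's mean over the 7 libraries, and the 8 genes were left out. Dnmt3a (9685 bases), Tet1 (14369), Tet2 (9179) and Tet3 (10904) are themselves long by this rule, so their correlation with the measure is partly built in. Dnmt1 (5870 bases) is not long by this rule. How many other genes follow it as closely, of like length or over all features, was not counted. The 6 of 8 is therefore not shown to be particular to these genes. By Spearman's rho the adjusted p was under 0.05 for Dnmt1, Dnmt3a, Tet1 and Tet3 alone. The measure was set up with the data in view. It was −0.47, 0.0023 and 0.20 in cKO replicates 1 to 3, against 0.04, 0.17, 0.21 and −0.14 in WT replicates 1 to 4. The lowest libraries were thus cKO replicate 1 and WT replicate 4, the pair high in liver markers, and their cytosolic ribosomal protein genes summed to 68761 and 65898 CPM against 51445 to 62675 CPM in the other 5. Dnmt3a followed it at r = 0.96 (exact permutation p = 0.00139, adjusted over 8 genes 0.00582; rho = 0.96, exact permutation p = 0.00278, adjusted 0.0222) and at 0.85 without cKO replicate 1 and WT replicate 4. Tet1 followed it at r = 0.89 (exact permutation p = 0.00218, adjusted 0.00582; rho = 0.86, exact permutation p = 0.0238, adjusted 0.0476) and at 0.83 without these 2 libraries. Dnmt1 had a rho of 0.86 (exact permutation p = 0.0238, adjusted 0.0476). Its r was 0.96 (exact permutation p = 0.00218, adjusted 0.00582), and 0.80 without these 2 libraries. Tet3 gave r = 0.92 (exact permutation p = 0.00615, adjusted 0.0123) and 0.73 without them. Tet2 had a rho of 0.71 (exact permutation p = 0.0881, adjusted 0.141). Its r was 0.94 (exact permutation p = 0.00972, adjusted 0.0156), and 0.51 without these 2 libraries. Dnmt3b gave r = 0.84 (exact permutation p = 0.0222, adjusted 0.0296; rho = 0.61, exact permutation p = 0.167, adjusted 0.222), but 0.11 without them. Uhrf1 did not pass, at r = 0.73 (exact permutation p = 0.122, adjusted 0.139; rho = 0.25, exact permutation p = 0.595, adjusted 0.595) and 0.07 without them. Tdg gave r = −0.51 (exact permutation p = 0.241, adjusted 0.241; rho = −0.57, exact permutation p = 0.200, adjusted 0.229) and −0.32 without them. After a linear fit on this measure was removed from each gene, 14 of the 21 pairs without Tdg still had a positive r, with a median of 0.30 in place of 0.87. All 7 pairs with Tdg were then positive, between 0.29 with Dnmt3a and 0.80 with Uhrf1. The part of this measure in the correlations between the genes was not tested further.

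**Figure D5:**
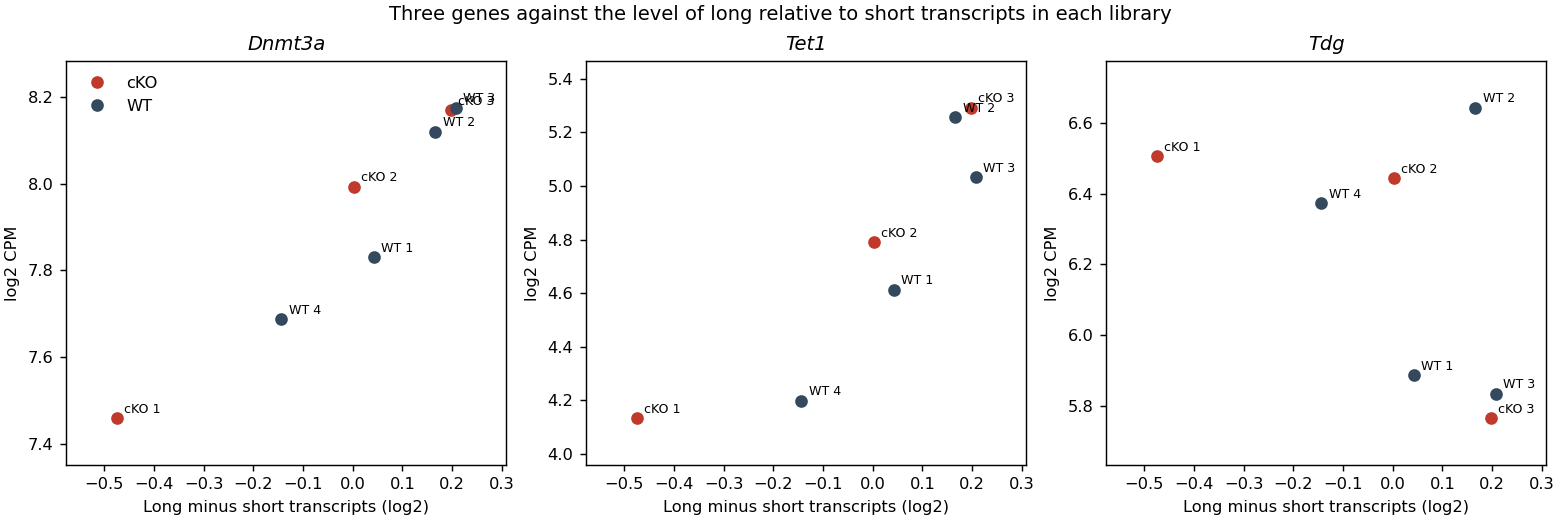
Log2 CPM of Dnmt3a, Tet1 and Tdg against the level of long minus short transcripts (log2), 1 point per library, cKO in red and WT in dark blue. Dnmt3a (r = 0.96) and Tet1 (r = 0.89) follow it across both genotypes, with cKO replicate 1 and WT replicate 4 at the low end, whereas Tdg (r = −0.51) does not follow it.

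Genes of S phase and mitosis, when Dnmt1 and Uhrf1 are known to act, also differed between embryos. Their 20 members summed to 3037, 3376 and 3701 CPM in cKO replicates 1 to 3, against 3398, 4055, 3428 and 3232 CPM in WT replicates 1 to 4. The log2 sum had an r of 0.88 with Uhrf1, 0.89 with Dnmt3b and with Tet1 and 0.85 with Dnmt1 over the 7 libraries, as a description. It had 0.80 with Dnmt3a, 0.77 with Tet2, 0.76 with Tet3 and −0.04 with Tdg. Other lists described below went as closely with the maintenance pair. Uhrf1 had 0.88 with base excision repair, and Dnmt1 had 0.94 with genes whose proteins bind unmethylated CpG sites. For Dnmt3b the S phase and mitosis list gave the highest r of all lists. WT replicate 2, the library without Y-linked reads, was the highest in the S phase and mitosis sum and the highest for Dnmt1, Uhrf1, Dnmt3b and Tdg. The list's 20 tested members had 0 calls, with 18 lower in cKO in the fit, and the median of their log2 fold changes was −0.05. That median was 0.0021 without cKO replicate 1 and 0.02 without WT replicate 2, so its sign rests on single libraries. With embryo sex as a covariate it was 0.02, but that term marks WT replicate 2 alone and is not a separate result. Its 2 members with the smallest p were Mcm2, a helicase subunit with 152 to 178 CPM in cKO and 176 to 208 CPM in WT, and Mcm7, another subunit, with 197 to 201 CPM in cKO and 198 to 234 CPM in WT.

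Partners and readers of the mark were likewise not called. Of 72 tested genes in 7 lists of the pathway, 0 passed in either direction, 47 were lower in cKO in the fit, and 2 had groups that did not overlap (2.72% over all features). Partners of maintenance and targeting had 11 of 12 tested members lower in the fit, with log2 fold changes from −0.18 to 0.0014 and a median of −0.09. Uhrf2, the relative of Uhrf1, was 1 of the 2 genes without overlap, with 81.6, 83.1 and 83.9 CPM in cKO libraries, against 93.1, 86.1, 85.9 and 86.6 CPM in WT libraries (log2 fold change −0.08, 95% interval −0.24 to 0.07). Zfp445, a zinc finger protein that guards imprints, had a log2 fold change of −0.18 (−0.49 to 0.13). Dnmt3l, the catalytically inactive partner of the Dnmt3 enzymes, named here after its values were seen, had 0 counts in each cKO library and 1 or 2 in each WT library, and was not tested.

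Methyl-CpG readers had a median log2 fold change of −0.05, with 6 of 10 lower. Among them Mbd4, a glycosylase that acts on mismatches at methylated sites, had 12.2 CPM on average in cKO and 14.4 CPM in WT (log2 fold change −0.24, 95% interval −0.55 to 0.08), and Mbd2 95.0 CPM in cKO and 88.2 CPM in WT (0.11, −0.07 to 0.28). Of the 7 CXXC genes, whose proteins bind unmethylated CpG sites, 5 were lower (median −0.06), with Kmt2b at −0.09 and Cxxc4 at −0.06. Base excision repair, which acts after Tdg, had 7 of 14 lower (median 0.02). Its Gadd45b, a stress-induced gene linked to demethylation, had 54.3, 46.4 and 37.1 CPM in cKO libraries, against 34.4, 37.6, 39.9 and 42.9 CPM in WT libraries (log2 fold change 0.25, 95% interval −0.06 to 0.55), with 1 cKO library inside the WT range. Neil1, a glycosylase, was at −0.22 (−0.60 to 0.16).

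Supply of the cofactors also showed no call. TET cofactors and oxoglutarate metabolism had 8 of 11 lower (median −0.04), with Ogt, a glycosyltransferase bound by Tet proteins, at −0.20 (95% interval −0.55 to 0.15) and D2hgdh, which removes an inhibitory metabolite, at −0.21 (−0.63 to 0.22). Of the 15 tested genes for the methyl donor, 9 were lower (median −0.04). Mat2a, which makes the donor S-adenosylmethionine, had the lowest log2 fold change among them, −0.77 (95% interval −1.74 to 0.19), with 22.6, 18.002 and 10.7 CPM in cKO libraries, against 38.4, 41.1, 16.2 and 20.8 CPM in WT libraries. WT replicates 3 and 4 lay within the cKO range, and WT replicates 1 and 2 lay above it. Mtrr, which reactivates methionine synthase, was at −0.13 (−0.36 to 0.09).

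Germline genes that promoter methylation is known to keep silent in body tissues were mostly near the limit of detection. Of 16 entries 12 were matched and 3 tested, and the 12 summed to 12.1 to 12.9 CPM in cKO and 9.89 to 15.7 CPM in WT. Most of that sum came from the 3 tested genes, Piwil2, Tdrd1 and Brdt, which had 32 to 135 counts per library. Piwil2, a Piwi protein, had 4.08, 4.09 and 4.09 CPM in cKO libraries, against 2.32, 3.94, 2.72 and 3.82 CPM in WT libraries, the other pathway gene without overlap (log2 fold change 0.36, 95% interval −0.18 to 0.89). Tdrd1, a Tudor protein of the same pathway, was at −0.21 (−0.996 to 0.58). Without cKO replicate 1 alone, the list medians were −0.0060 for the germline genes, 0.05 for the methyl-CpG readers, 0.03 for the CXXC genes and 0.0085 for the TET cofactors, so the sign of these 4 rests on that library. The median for base excision repair changed sign in 5 of the 7 settings that leave out 1 library. Partners of maintenance and methyl donor genes kept a median below 0 in all 7, from −0.13 to −0.0087 for the partners. The germ cell genes Dazl and Sycp1, named here after their values were seen, each averaged 0.04 CPM in cKO, while Dazl averaged 0.17 CPM and Sycp1 0.02 CPM in WT.

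Other cell types in the dissected organ were described by their markers, none of which was called. All 8 liver markers were higher in cKO in the fit, by a median of 0.94 on the log2 scale, and their log2 sum had an r of −0.86 with Dnmt1, −0.85 with Dnmt3a and 0.54 with Tdg. The 7 macrophage markers were all higher (median 0.11), as were the 7 erythroid markers (0.37). With cKO replicate 1 left out, the liver markers had a median of −1.29 and the erythroid markers of −0.06, so the direction of both rests on that library, while the macrophage median was 0.10. Nerve markers summed to 131 to 906 CPM in cKO and 97.7 to 722 CPM in WT, with an r of −0.57 with Dnmt1. Without WT replicate 4 the liver median was 2.41, and without both libraries it was 0.30. The nerve median was −0.04, and between −1.10 and 0.30 without single libraries. Mesenchyme had a median of 0.01, which changed sign in 4 of 7 settings without 1 library, and endothelium −0.05, which changed sign in none of the 7. Whether these cells contribute to the differences between embryos was not tested. Without cKO replicate 1 and WT replicate 4 the log2 fold change was −0.07 for Dnmt1, −0.08 for Uhrf1, 0.04 for Dnmt3a and 0.07 for Tet1, with 0 of the 8 genes called.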

How the data were processed

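Polyadenylated RNA of E15.5 pancreas was sequenced in 3 cKO and 4 WT libraries. The authors deposited raw read counts per feature as whole numbers. Per the submitters' processing notes, HISAT2, StringTie and featureCounts were used with mm39; neither roles nor settings were given. The library kit named in the labels' protocols does not mark strand. Of 27138 features, 26823 carry Ensembl identifiers. Symbols and lengths came from GENCODE M21 (GRCm38), another build, so no gene coordinates are given. Promoter windows are RefSeq's, on GRCm38.p6.

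Counts were filtered with filterByExpr (16910 features), scaled by TMM and tested with edgeR 4.0.16 (estimateDisp, glmQLFit with robust estimation, glmQLFTest, group as the only term) in R 4.3.3, with Benjamini-Hochberg adjustment and a threshold of 0.05. DESeq2 1.42.0 and limma 3.58.1 (voom) were alternatives, with other scalings, filters and covariates. SEs came from the coefficient and F statistic, and log2 CPM used a prior count of 2. Exact tests ran over the 35 divisions of the libraries, which allow no p under 0.0286, and over all orders for correlations. The edgeR fit was tested on simulated data. Intervals of counts cover spread between these animals. All pairs of libraries differed beyond sampling noise (chi-square over its degrees of freedom, 11.1 to 50.8). The genes and lists were chosen with earlier results of these data known. The rule for named genes took the 8 genes, the 2 tested genes of smallest p in each list and, for each of the 8, the 2 genes of highest r. Of the columns of per-sample values all were used.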

Additional observations from a re-analysis of the deposited data

Results flagged for a closer look

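None of the 8 genes had a WT library far from the other 3. Of 39 genes checked, 4 had one, and chance gives about 1 in 20. Mcm2 had 208 CPM in WT replicate 2, against 176 to 178 CPM in the other WT libraries. Uhrf2 had 93.1 CPM in WT replicate 1, against 85.9 to 86.6 CPM in the others. Ins2 had 779.9 CPM and Ahsg, a liver marker, 31.6 CPM in WT replicate 4, against 429.8 to 462 and 0.753 to 2.56 CPM in the others. The 3 cKO libraries were too few for this check.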

How the results depend on the processing

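None of the 8 genes passed the threshold under any of 20 settings, in which the lowest adjusted p was 0.966. Dnmt1 and Uhrf1 were lower in cKO in all of them, and the other 6 changed sign in some. Leaving out 1 library at a time gave log2 fold changes of −0.21 to −0.00459 for Dnmt1, −0.19 to −0.0532 for Uhrf1, −0.22 to 0.12 for Dnmt3a, −0.28 to 0.0631 for Dnmt3b, −0.33 to 0.24 for Tet1, −0.20 to 0.16 for Tet2, −0.25 to 0.12 for Tet3, −0.0742 to 0.25 for Tdg. Without cKO replicate 1 alone, Dnmt3a, Dnmt3b, Tet1, Tet2 and Tet3 were above 0 and Tdg below it. With the long-transcript measure as a covariate, a setting added with the data in view, the values were 0.10 for Dnmt3a, 0.00256 for Dnmt3b, 0.26 for Tet1, 0.0807 for Tet2, 0.0831 for Tet3, −0.0882 for Tdg. Without both libraries high in liver genes, also chosen afterwards, they were 0.0355 for Dnmt3a, 0.00331 for Dnmt3b, 0.0742 for Tet1, 0.12 for Tet2, 0.0573 for Tet3, −0.026 for Tdg. With the S phase level as a covariate they were 0.0103 for Dnmt3a, 0.14 for Tet1, 0.014 for Tet2, and with embryo sex Tet1 was at 0.16. The sex term marks WT replicate 2 alone, so sex and that embryo cannot be told apart. The cause of these changes of sign was not tested. The library whose column header has another number is WT replicate 4, and without it the values were −0.19 for Dnmt1, −0.15 for Dnmt3a, −0.18 for Tet1.

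The count of called features was 1, and 0 with DESeq2 size factors, library totals, a filter at 1 CPM, estimation that is not robust or embryo sex. It was 4 without a filter, 13 with DESeq2, 2 with the long-transcript measure and 0 to 3 without single libraries. A replicate block on replicates 1 to 3 gave 13, where the same 6 libraries gave 0 unblocked. Same-numbered libraries deviated together at r = 0.28, 0.42 and 0.06. cKO replicates 1 and 2 were nearest to the WT library of their own number, and cKO replicate 3 to WT replicate 2. The numbers were not taken as pairs, though these values do not settle whether they are. The block called 0 of the 8 genes. Levels per kb of the longest transcript were 39.3 for Dnmt1, 54.1 for Uhrf1, 25.4 for Dnmt3a, 4.52 for Dnmt3b, 3.46 for Tet2, 11.1 for Tet3 and 21.7 for Tdg. The number of correlated pairs past the threshold was 12 on CPM, 16 on library totals and 12 with group means removed. Having 3 cKO animals limits what can be seen. Dnmt3b, Tet1 and Tet2 had the fewest reads, but the SEs did not follow read number. They were 0.182 for Dnmt3b and 0.171 for Tet2, beside 0.184 for Dnmt3a and 0.254 for Tdg, while Tet1 had the largest, 0.328.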
